A study of Mus musculus with 4 samples.

Results

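Irf8 encodes interferon regulatory factor 8, the transcription factor that the knockout mice of this study lack. The stretch examined here is the Irf8 gene (ENSMUSG00000041515.10, chromosome 8, 120736358 to 120756694 in GRCm38, plus strand) with 100 kb before its start and 150 kb past its end, 120636358 to 120906694. All rows of both deposited tables inside it were taken: 77 of the 269406 positions in the authors' list of differing sites, and 1 of the 3389 regions in their list of differing regions. Methylation had been measured by whole-genome bisulfite sequencing in sorted microglia, the resident macrophages of the brain. Bisulfite converts unmethylated cytosine and spares methylated cytosine, so the share of unconverted reads gives the methylation level, from 0 to 1. The wild-type group (WT) and the knockout group (IRF8KO) held 2 samples each, all of C57BL/6J mice 3 months of age, untreated. The labels do not say which part of Irf8 the knockout alters, nor whether the samples of a group came from separate mice, so that the authors' p-values may measure only technical spread. The tables number the groups as first and second and name no genotype, and hold no value per sample and no read depth. Directions are therefore given as first against second group, and the error of a difference is the standard error (SE) the authors deposited. The identity of the cells could not be checked, since no expression values were used here.

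IRF8 binds DNA together with partners, chiefly the ETS factor PU.1 (Spi1) and AP-1 factors such as BATF3, and is needed for the development of several myeloid cells and for the mature state of microglia. The Irf8 gene is itself regulated through distant enhancers, which the field names by their distance from the gene start: one upstream at -50 kb and others in the domain downstream, at +32, +41 and +56 kb. Starts of active genes usually lie in unmethylated stretches rich in CpG, the dinucleotide at which mammalian cytosines are mostly methylated, and active enhancers tend to lose methylation.

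Every listed position of the Irf8 window had the higher fitted level in the first group, and none had a false discovery rate (FDR) under 0.05. In the authors' deposited table, 77 of 77 positions had a positive difference, coded as first minus second group, against 61.9% of the whole list. An FDR under 0.05 was given to 0 of the 77 and to 18.7% of the whole list. Of the 77, 18 had an unadjusted p under 0.001, against 42.5%. The lowest FDR in the authors' deposited table was 0.0698. "Higher" below thus gives the sign of a deposited difference and is not a call at this FDR. The median difference in the window in the authors' deposited table was 0.292, with a median SE of 0.0922, and the whole list had a median absolute difference of 0.329 and a median SE of 0.103. The differences in the authors' deposited table ran from 0.217 to 0.383. Positions of 1 direction at most 500 bp apart were counted as 1 cluster, since neighbours shared fitted values. The 77 positions formed 8 clusters: 1 of 55 positions at exon 2 of Irf8, 1 of 14 positions upstream, 1 of 3 positions in an intron, and 5 single positions. The 77 of 77 thus stands for 8 clusters of 1 direction, and the share of clusters over the whole list is not given here.

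**Figure D1:**
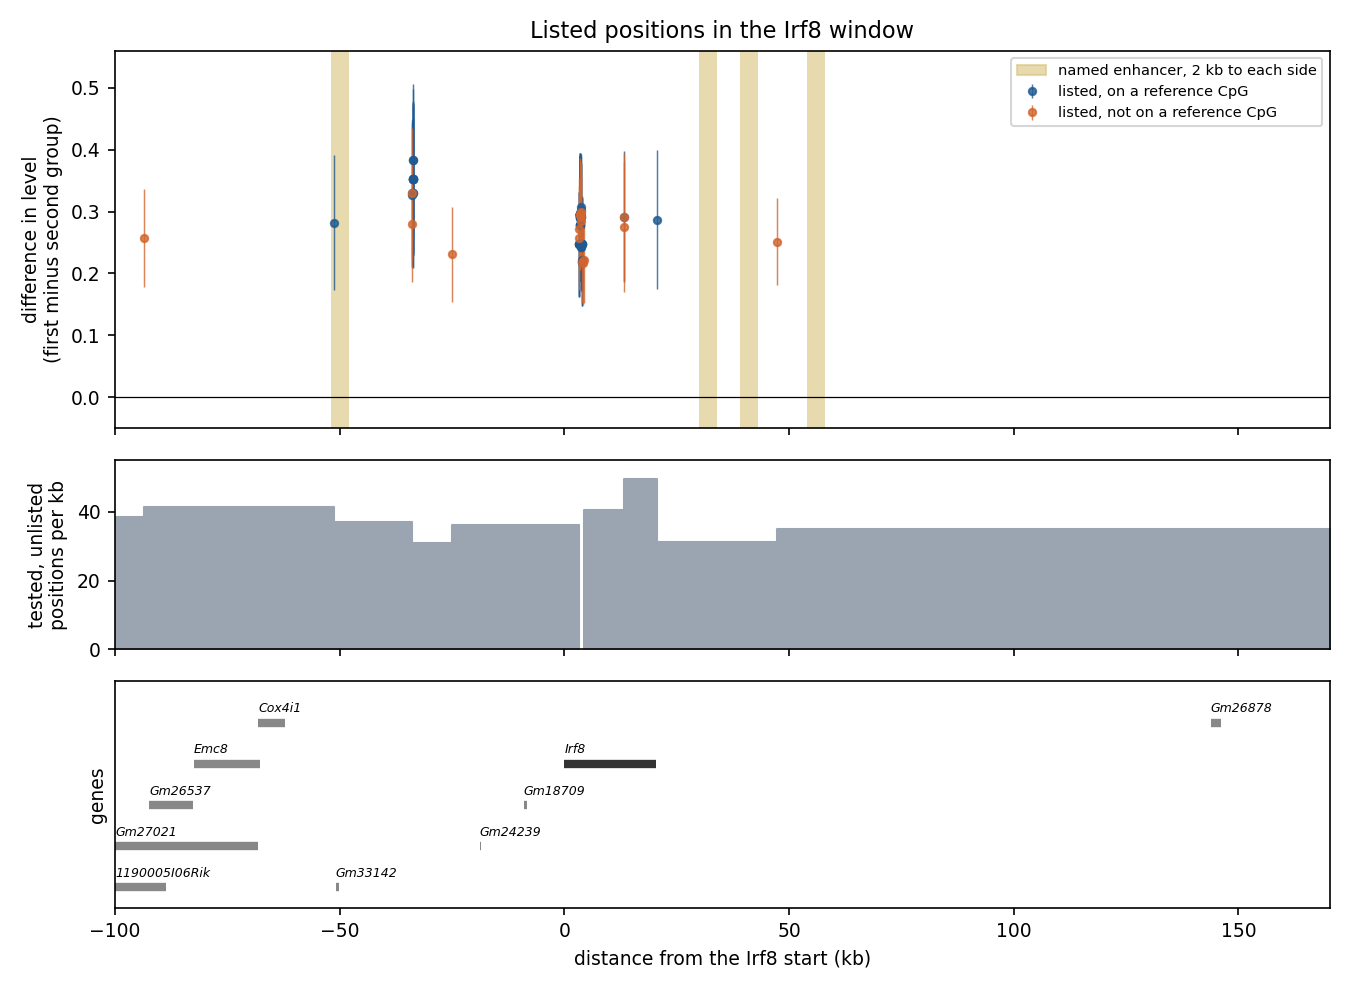
Top, difference in fitted methylation level (first minus second group, scale 0 to 1) of each listed position against its distance from the Irf8 start in kb, with the deposited SE as bars and the named enhancers as bands. Middle, tested positions per kb that were not listed, as the mean of each stretch between listed positions. Bottom, annotated genes. The 77 positions all lie above 0, most of them in the cluster at exon 2, and the part past +47.4 kb holds none.

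What a position needed to be listed could be recovered from the values. The smallest posterior probability in the authors' deposited table was 0.95, and for all listed positions it equalled the normal probability of an absolute difference above 0.1 to within 3.9e-09. A position with the lowest SE of the window, 0.0657, thus needed a difference of at least 0.208, and one with the highest SE, 0.125, needed 0.305. A position that was tested and is not listed missed this limit, which does not show that its levels were equal.

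The cluster at exon 2 combined a low level in the second group with a moderate level in the first. It spans 120739604 to 120740610, from 3.25 to 4.25 kb past the start, and covers the end of intron 1 (15 positions), exon 2 (25 positions) and the beginning of intron 2 (15 positions). Exon 2 (120739817 to 120739991, transcript ENSMUST00000047737.9) holds the start codon and encodes the beginning of the protein, where IRF factors have their DNA-binding domain. Whether the knockout allele alters exon 2 is not given in the sources used here, and its part in the levels at this cluster was not tested. In the authors' deposited table, the fitted level of the first group ran from 0.280 to 0.378 (median 0.360) over the 55 positions. That of the second group ran from 0.0608 to 0.0753 (median 0.0690). These ranges run over positions and not over samples. The first group's level was lower at both ends than in the middle, with medians of 0.349 in intron 1, 0.365 in exon 2 and 0.308 in intron 2. The second group's level varied less, with medians of 0.0701, 0.0681 and 0.0626 in the same order.

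The highest difference in this cluster, 0.308 (SE 0.0854), lay at 120740006, just inside intron 2, with levels of 0.378 and 0.0701 in the authors' deposited table. Its FDR of 0.162 was the lowest in the authors' deposited table at any reference CpG of the window. The lowest FDR of all, 0.0698, belonged to 120740089 in the same intron, where the levels were 0.356 and 0.0713 and the SE was 0.0728 in the authors' deposited table. That position is off any reference CpG. The cluster was nearly gapless: its first 50 positions, up to 120740231, bear consecutive row numbers, which means that every position tested there was listed. From there to its end, 11 tested positions were passed over among 5 further listed ones.

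Values within the cluster were not separate measurements. The 55 positions carried 25 distinct pairs of levels, and they lay on 24 reference CpGs plus 10 positions off a CpG. Of these CpGs, 21 were listed on both strands, and 19 of the 21 had identical levels of the first group on both. Counted as a cluster, they are 1 difference over 1007 bp.

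**Figure D2:**
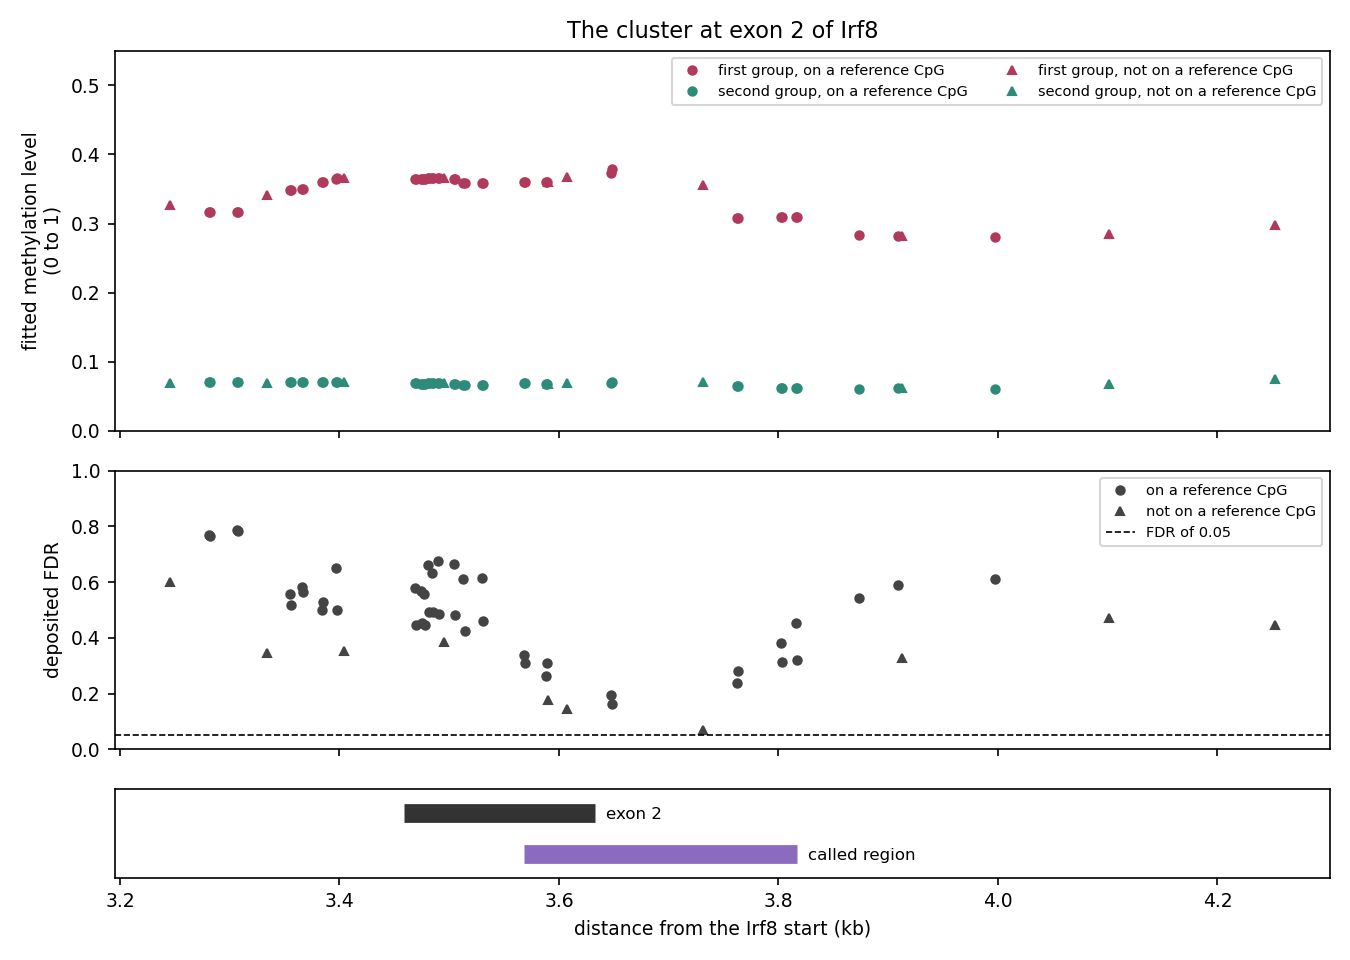
Fitted methylation level of both groups (top, scale 0 to 1), deposited FDR (middle) and the extent of exon 2 and of the called region (bottom) against the distance from the Irf8 start in kb, for the 55 listed positions of the cluster. The first group lies between 0.280 and 0.378 and the second between 0.0608 and 0.0753, and all points lie above the dashed line at an FDR of 0.05.

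The called region of the window is the part of this cluster with the smallest p-values. It spans 120739926 to 120740175 (250 bp, 15 cytosines), from the last part of exon 2 into intron 2. Of its 15 positions 13 had p under 0.001 in the authors' deposited table, against 2 of the 34 positions of the cluster before it and 1 of the 6 after it. The authors' name for the list of regions carries the value 0.001. If this was their p limit, the contrast follows from how the region was called. Its sequence is shown because the only region called near Irf8 rests on so few CpGs: 6, in capitals, plus strand of GRCm38, chr8:120739926-120740175, of which the first 2 lie in exon 2.
Irf8 region: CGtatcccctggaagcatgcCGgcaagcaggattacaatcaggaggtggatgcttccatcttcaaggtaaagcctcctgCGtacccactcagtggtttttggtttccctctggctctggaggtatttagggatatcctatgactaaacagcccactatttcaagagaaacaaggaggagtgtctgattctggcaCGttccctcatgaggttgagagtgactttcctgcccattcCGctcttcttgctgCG
Of the 15 cytosines, 12 are both strands of these 6 CpGs, and 3 lie off a CpG. The authors' deposited table gives the region mean levels of 0.342 (first group) and 0.0667 (second group), a difference of 0.275, and an area score of 51.7, which sums the test statistics of its positions.

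Among the 3389 called regions, the one at Irf8 was the least methylated. Its level of 0.0667 was the lowest mean level of either group in the authors' deposited table, and the next lowest was 0.0788. The level in its more methylated group, 0.342 in the authors' deposited table, was likewise the lowest of all regions, whose median was 0.757. Its difference was small on the absolute scale: 83 regions (2.45%) had a smaller absolute difference, and the median was 0.405. As a ratio of levels it was large, 5.13-fold against a median of 2.31-fold, and 17 regions had a larger ratio. By absolute area score it ranked 1149 of the 3389. Of all regions, 77.9% held at least 1 position whose FDR was under 0.05, and the Irf8 region did not. Of the 8 regions with a level under 0.1 in either group, 7 were higher in the first group (53.3% of all regions were), and 2 of the 8, Irf8 included, held no position with an FDR under 0.05. The ratios of levels of these 8 ran from 4.16 to 8.50, so a large ratio was not particular to Irf8.

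**Figure D3:**
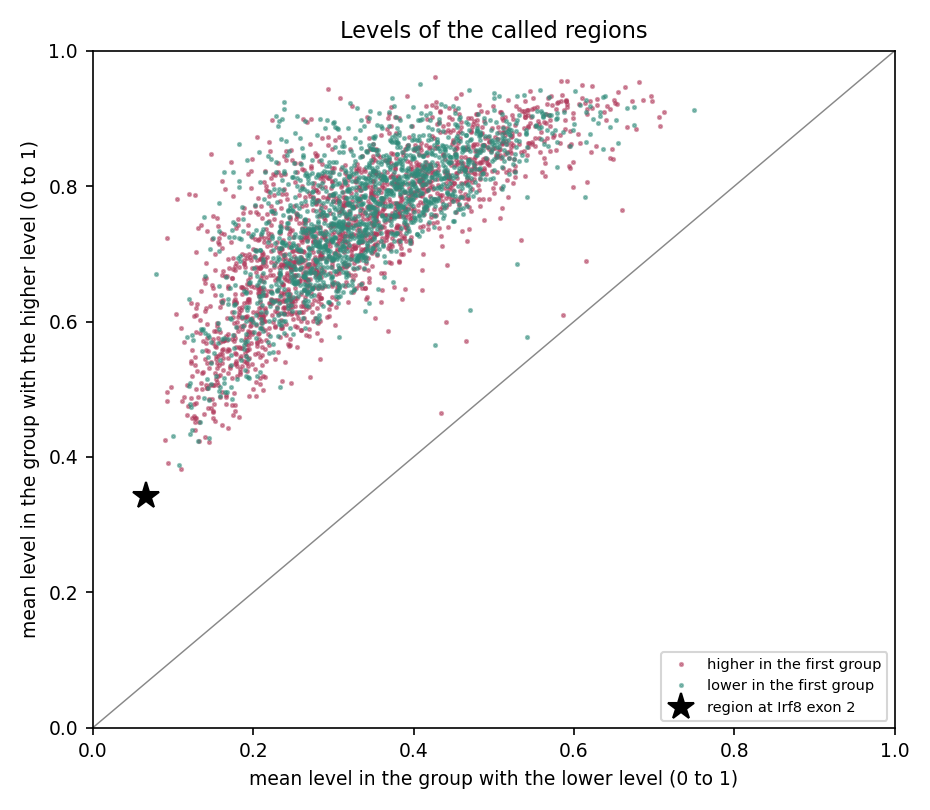
Mean methylation level of each called region in the group with the higher level against that in the group with the lower level (both on a scale from 0 to 1), coloured by direction. The region at exon 2 of Irf8 (star, 0.0667 and 0.342) lies at the lower left end of the 3389 regions.

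The start of Irf8 itself held no listed position. Between the listed positions at -25.0 kb and at +3.25 kb, the row numbers leave 1022 tested positions without a listing. They do not place these positions, so how many lay at the start itself is unknown. Stretches rich in CpG were sought as frames of 200 bp with at least 50% G and C and an observed-to-expected CpG ratio of at least 0.6, merged where they overlapped. Of 60 such stretches longer than a frame in the window, 1 held listed positions: 120739637 to 120740034 at exon 2, with 398 bp, 18 CpGs and 41 of the 77 positions. The 60 held from 1 to 158 CpGs, so not all that passed these limits were rich in CpG. The stretch over the start, 120735975 to 120736840, had 866 bp and 64 CpGs and held none. The same was true of the stretch with the most CpGs in the window, 158, at the overlapping starts of Emc8 and Cox4i1, which encode a subunit of the membrane protein insertion complex of the endoplasmic reticulum and a subunit of cytochrome c oxidase.

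The second largest cluster lay upstream and had the highest differences of the window. Its 14 positions span 120702497 to 120702646, from -33.9 to -33.7 kb, outside annotated genes apart from a read-through model. In the authors' deposited table, the first group's level was 0.462 at its first position and 0.607 at its last, and the second group's was 0.182 and 0.224, differences of 0.280 and 0.383. All 14 bear consecutive row numbers. The highest difference, 0.383 (SE 0.115) at 120702645, had an FDR of 0.319 in the authors' deposited table. The SEs in the authors' deposited table ran from 0.0945 to 0.125 here and from 0.0657 to 0.0989 at exon 2. The sequence of the cluster is shown because it holds 6 CpGs in 150 bp, a denser spacing than in the called region; CpGs are in capitals, plus strand, chr8:120702497-120702646.
Upstream cluster: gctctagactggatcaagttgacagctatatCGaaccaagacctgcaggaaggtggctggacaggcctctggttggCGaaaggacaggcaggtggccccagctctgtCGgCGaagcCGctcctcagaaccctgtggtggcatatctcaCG
Of the 14 positions, 12 are both strands of these CpGs, and the other 2 lie off a CpG.

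The downstream domain was nearly empty of listed positions. Past the end of Irf8 the window held 2: 120756940, 246 bp past the gene, and 120783763, at +47.4 kb. In the authors' deposited table the first had levels of 0.767 and 0.481, a difference of 0.287 (SE 0.112) and an FDR of 1. The second had 0.683 and 0.431 in the authors' deposited table, a difference of 0.251 (SE 0.0702) and an FDR of 0.176, the lowest outside the exon 2 cluster. It lies off a CpG, at the capital in the middle of these 61 bases of the plus strand (chr8:120783733-120783793), which hold no CpG at all.
Position at +47.4 kb: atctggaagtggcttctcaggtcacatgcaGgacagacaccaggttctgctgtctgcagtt
The row numbers leave 836 tested positions between these neighbours, a stretch with 666 cytosines in reference CpGs, and 9710 from the latter to the next listed position at +325 kb, well past the window.

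Of the 4 named enhancers, 3 had no listed position within 2 kb. The nearest to the +32, +41 and +56 kb enhancers lay 11.4, 6.41 and 8.60 kb away. All 3 lie in the 2 stretches just described, in which the tested positions went unlisted, and how many of these lay at an enhancer itself is likewise unknown. The window of 270 kb held 8 clusters, so most frames of 4 kb in it hold no listed position, whether at an enhancer or not. The enhancer at -50 kb had 1 listed position within 2 kb, 120685042 at -51.3 kb, on a CpG. Its levels were 0.663 and 0.382 in the authors' deposited table, a difference of 0.282 (SE 0.109), with an FDR of 1. Counted over intervals, with the number tested interpolated between row numbers, listed positions made up 6.41% of those tested in the Irf8 gene, 0.443% before its start and 0.0388% past its end. In the whole list they made up 0.630% of the row numbers. Of the 58 listed positions of the gene, 55 were the exon 2 cluster, where 66 positions were tested. The share of the gene thus rests mainly on that 1 cluster.

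Of the remaining listed positions, 3 lay in intron 6 of Irf8, at +13.2 kb (120749545 to 120749563), and 2 were single positions upstream. In the authors' deposited table those of intron 6 had levels near 0.638 and 0.346 and a highest difference of 0.292. Their lowest FDR in the authors' deposited table, 0.946, was at 120749560 (SE 0.104). The position at 120711312 (-25.0 kb, outside genes) had levels of 0.551 and 0.320, a difference of 0.231 (SE 0.0765) and an FDR of 0.644 in the authors' deposited table. The position at 120642721 (-93.6 kb), in introns of 1190005I06Rik and Gm27021, had levels of 0.850 and 0.592, a difference of 0.258 (SE 0.0793) and an FDR of 0.391 in the authors' deposited table. Both lie off a CpG. Apart from exon 2, the second group's level was thus between 0.182 and 0.592 at every listed position of the window. The other coding and long non-coding genes of the window, Emc8, Cox4i1, Gm26537 and Gm26878, held none.

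Some listed positions lay off any reference CpG. They numbered 17 of 77 (22.1%; 22.0% in the whole list), with a G in the reference at 15 and a C at 2. All 17 carried the same pair of dispersion values in the authors' deposited table, 0.0571 and 0.0558, which 96.3% of such positions in the whole list and 20.1% of listed CpG positions carry. None of the 60 CpG positions of the window had both values. Off-CpG positions made up 3 of the 8 clusters entirely, and 5 of the 8 had their lowest p at such a position. How these positions came to be tested is not given in the sources used here. At CpG positions alone 5 clusters were left, of which all were higher in the first group.

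The motifs were sought on both strands in the 300 bases around the middle of each cluster: the composite ETS and IRF element, the interferon response element of IRF factors, the PU.1 element GAGGAAGT and the AP-1 type element TGANTCA, which reads the same on both strands. The first and second cannot match at the same place but can overlap. None of the first 3 was found at any of the 8 clusters, and TGANTCA was found at 1, the position just past the gene end. In the 901 consecutive frames of 300 bases of the window, 2.22%, 3.11%, 2.11% and 8.32% held them, in the order named.

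A window of the same rule around each of 21938 protein-coding genes gave the setting for these counts. Such windows overlap, so neighbouring genes share positions, and the shares are descriptions. The median window held 23 listed positions in 8 clusters, so Irf8 had more positions than 92.1% of the windows and the median number of clusters. Of the windows, 82.9% held at least 1 position whose FDR was under 0.05. Of the 1743 windows with at least 77 listed positions, 20 (1.15%) had no such position, Irf8 among them. Among windows with at least 5 clusters, 3.03% had all clusters in 1 direction, up or down, as Irf8 did. Among the 11839 windows with at least 8 clusters, the number of Irf8, 137 did. A called region was present in 33.3% of the windows.

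The partners and regulators of Irf8 were read in the same kind of window. Of 14 such genes, 13 had a position with an FDR under 0.05 and 10 had a called region, against 82.9% and 33.3% of all windows. All 14 had listed positions in both directions. Window lengths follow the gene and ran from 251504 bp (Cebpb) to 474684 bp (Runx1), with 270337 bp for Irf8. Their 21 regions were split into 10 higher and 11 lower in the first group, where 53.3% of all regions were higher. Spi1, which encodes PU.1, had 11 listed positions, of which 6 were higher, and no region. Batf3, whose product pairs with IRF8 at AP-1 sites, had 189, of which 15 were higher, and 3 regions, all lower in the first group. Cebpb, which encodes a myeloid leucine zipper factor, had 126, of which 112 were higher, and 4 regions, all higher. Of the related factors, Irf1, Irf2 and Irf4 had 43 of 95, 65 of 141 and 25 of 50 positions higher in the first group. At the microglial loci Sall1, P2ry12 and Mef2c, 317 of 464, 48 of 141 and 34 of 62 positions were higher, and 50, 50 and 9 had an FDR under 0.05. In the whole list 18.7% of positions had such an FDR. The share was smaller than that at Sall1 and Mef2c and larger at P2ry12. Neighbours share fitted values, so clusters were counted as well. Of these, 8 of 8 were higher at Irf8, 3 of 7 at Spi1, 4 of 12 at Batf3 and 5 of 6 at Cebpb. For Irf1, Irf2 and Irf4 the counts were 8 of 14, 11 of 19 and 6 of 10. For Sall1, P2ry12 and Mef2c they were 39 of 52, 9 of 22 and 9 of 16. The difference between Irf8 and these windows was not tested.

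**Figure D4:**
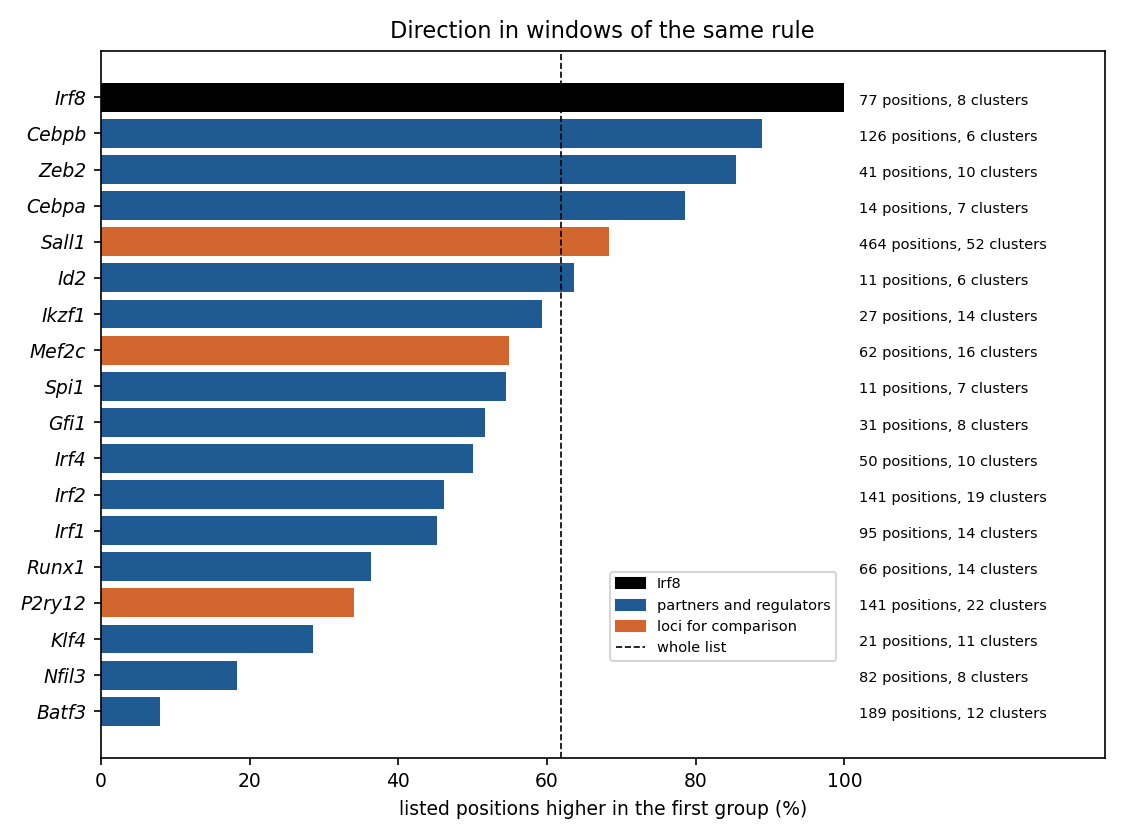
Share of listed positions higher in the first group, in percent, in windows of the same rule around Irf8 (black), its partners and regulators (blue) and 3 microglial loci (orange), with the numbers of positions and clusters. The dashed line is the share of the whole list, 61.9%. Irf8 is at 100% and the other windows run from 7.94% to 88.9%.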

How the data were processed

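Bisulfite libraries of 4 samples were made, per the labels' protocols, from 50 ng of DNA of 40000 sorted microglia with 8 PCR cycles, and read as pairs of 75 bp. Bismark, Trim Galore and mm10 are named in the submitters' processing notes, without roles. What tool made the comparison is not given in the sources used here. Both tables are the authors' comparison of the groups. Per the file headers they give a fitted level per group as a fraction (0 to 1), a dispersion and a posterior probability on the same scale for positions, a difference of these levels (first minus second group), its standard error, a test statistic and, for regions, an area score, and the authors' p-value with its FDR. Columns with values of single samples numbered 0.

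Coordinates were matched to GRCm38: 78.0% of listed positions lay on a CpG, and 1.71% after a shift of 100 bp. Genes came from GENCODE M21. The read-through model Gm20388 spans the whole window and was passed over. Deposited row numbers rise with position and were taken as an index of tested positions, which reached 42734461. Counting used Python 3.11.15 and pandas 2.3.3, and clustering was tested on simulated data. No test was added: with no values per sample, differences could not be set against replicate spread, and depth is unknown. The Irf8 window, gene lists, enhancer distances and motifs were chosen with earlier results of these data known. A further partner or regulator on the list was left out of all counts and the plot, and is not reported here. The 8 clusters of the window were all named, each by its position of lowest p or highest difference.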

Additional observations from a re-analysis of the deposited data

How the results depend on the processing

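Of 24 alternatives, 6 of them chosen after seeing the data, 16 left the result within 1.5 times the count or within 1 median SE. Part of these 16 were fixed in advance and say nothing of stability. They are the shares of direction, the counts of 0 under stricter settings, and the region of 15 cytosines kept at limits of 5 and 10. The count of 77 positions was 15 with a difference of at least 0.3 and 22 without the exon 2 cluster. The count of 0 positions with an FDR under 0.05 became 1 with an FDR under 0.1, 18 with p under 0.001, and 11 with p under 0.001 at reference CpGs alone. The 8 clusters became 5 at reference CpGs alone. The 1 position at named enhancers became 0 within 1 kb and 2 within 10 kb. These settings admit fewer or more positions by construction. The share higher in the first group was 100% in every setting run. This could not have come out otherwise, since each setting selects from or groups the same 77 positions, all of them higher. No paired analysis was possible because neither table gives sample values. A minimum coverage, a replicate block and leave-one-out fits could not be had without them.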

Other observations

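The gapless run of 50 listed positions at exon 2 of Irf8 was long for this list. Of 132061 runs of listed positions with consecutive row numbers, 105 were at least as long, and the longest had 341. Of these 105 runs, 86 held a position with an FDR under 0.05, and 19, the one at Irf8 included, held none. Of the 988 called regions with at least 15 cytosines, 99 held no such position, the one at Irf8 among them. These counts were made after the values had been seen.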
